A study of Mus musculus with 2 samples.

Results

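The genes described here encode the proteins of the mitochondrial ribosome, whose symbols begin with Mrpl for the large subunit and Mrps for the small subunit. They were found as the array probes, controls left out, whose accession maps to such a symbol followed by a number. This gave 100 probes for 78 genes, 49 of the large and 29 of the small subunit, among 20655 named genes. Of the 78 genes, 77 were well above background on both arrays. The exception was Mrpl21, at signals of 2.51 (bone marrow) and 2.12 (fetal liver), near the median of the negative control spots (2.70 and 2.27).

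RNA was measured on 1 single-colour Agilent array per group, 1 of bone marrow and 1 of fetal liver. Both groups were wild type mouse cells from animals that had not been transplanted, sorted as LSK cells: cells without lineage markers that carry Sca-1 and c-Kit, the fraction that holds blood stem cells and multipotent progenitors. The bone marrow cells came from mice 8 weeks old of strain C57BL/6. The fetal liver cells came from embryos at E14.5, with no strain in the sources used here. The labels set blood formation in the fetus beside that of the adult. Tissue, age and slide differ together here and cannot be told apart. The number of animals behind each sample is not stated in those sources. In bulk samples, a change in the mix of cells and a change in RNA per cell cannot be told apart.

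Mitochondria keep a small genome and translate its messengers, which encode core subunits of the respiratory chain and ATP synthase, on their own ribosomes. The RNA of these ribosomes is made inside the organelle, while all of their proteins are encoded in the nucleus, made in the cytosol and imported. The large subunit joins amino acids and holds the tunnel through which the new chain leaves next to the inner membrane, and the small subunit reads the messenger. Some of the proteins have counterparts in bacterial ribosomes and others are found only in mitochondria. Low or stalled mitochondrial translation limits respiration, and blood stem cells are known for a low reliance on respiration compared with the progenitors they give rise to.

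The sequences of 5 promoters are shown because these genes span the range of the values below, 4 with a higher and 1 with a lower scaled signal in fetal liver, and because each window holds a motif of a factor known for control of mitochondrial genes. They were chosen after their values were seen. The windows run from 250 bases before to 50 bases after the start site in the RefSeq promoter table of build GRCm38.p6, and are written 5′ to 3′ in the direction of the gene. Capitals mark a match, on either strand, to the Nrf1 motif (the half-site GCGCA and, after 1 base of any kind, the half-site GCGC), to CCGGAAG (Ets family, which includes Gabpa) or AAGATGGC (Yy1). Mrps22 lies at chr9:98601630-98601929 on the minus strand, Mrpl12 at chr11:120484387-120484686 on the plus strand, Mrpl58 at chr11:115403502-115403801 on the plus strand, Mrpl17 at chr7:105811038-105811337 on the minus strand and Mrpl35 at chr6:71823735-71824034 on the minus strand.
Mrps22: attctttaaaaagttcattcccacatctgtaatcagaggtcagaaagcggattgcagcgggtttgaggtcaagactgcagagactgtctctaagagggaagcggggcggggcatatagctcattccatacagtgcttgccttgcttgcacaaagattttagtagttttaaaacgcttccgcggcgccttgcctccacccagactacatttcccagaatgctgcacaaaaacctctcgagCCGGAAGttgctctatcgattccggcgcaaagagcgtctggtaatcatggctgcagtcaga
Mrpl12: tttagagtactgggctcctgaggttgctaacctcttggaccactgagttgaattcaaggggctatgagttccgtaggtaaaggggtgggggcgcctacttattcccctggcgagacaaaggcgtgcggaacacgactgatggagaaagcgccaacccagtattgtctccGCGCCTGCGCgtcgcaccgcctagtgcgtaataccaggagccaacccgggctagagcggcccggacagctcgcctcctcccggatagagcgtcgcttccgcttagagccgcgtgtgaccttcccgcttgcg
Mrpl58: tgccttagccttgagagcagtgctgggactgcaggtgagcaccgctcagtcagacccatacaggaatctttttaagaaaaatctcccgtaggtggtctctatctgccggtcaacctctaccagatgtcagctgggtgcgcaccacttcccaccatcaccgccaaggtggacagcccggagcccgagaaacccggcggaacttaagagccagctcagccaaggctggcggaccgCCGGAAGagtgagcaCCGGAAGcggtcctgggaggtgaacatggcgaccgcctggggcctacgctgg
Mrpl17: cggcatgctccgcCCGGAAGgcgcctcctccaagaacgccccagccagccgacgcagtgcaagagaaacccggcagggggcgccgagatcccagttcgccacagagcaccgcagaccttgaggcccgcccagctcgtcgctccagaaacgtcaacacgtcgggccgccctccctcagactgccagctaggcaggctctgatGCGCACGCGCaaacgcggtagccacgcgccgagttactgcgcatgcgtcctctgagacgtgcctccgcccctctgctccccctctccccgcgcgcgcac
Mrpl35: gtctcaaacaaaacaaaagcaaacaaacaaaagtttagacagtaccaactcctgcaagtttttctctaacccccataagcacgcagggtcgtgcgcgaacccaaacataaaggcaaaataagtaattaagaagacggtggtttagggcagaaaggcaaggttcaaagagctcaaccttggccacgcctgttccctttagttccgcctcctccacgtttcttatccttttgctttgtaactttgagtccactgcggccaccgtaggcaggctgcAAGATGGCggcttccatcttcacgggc

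The Ets match of Mrps22 began 11 bases before the start site, and those of Mrpl58 began 17 and 2 bases before it. Mrpl12 held an Nrf1 match from 81 bases before the start, Mrpl17 an Nrf1 match from 49 and an Ets match from 237 bases before it, and Mrpl35 a Yy1 match at base 24 after it. None of the marked matches overlap. The promoter table held 75 windows for 69 of the 78 genes. The Nrf1 motif was in 13 of these windows (17.3%) and in 4.60% of all 32851 promoters of the same length. The Ets motif was in 26 (34.7%, against 8.86% of all) and the Yy1 motif in 12 (16.0%, against 2.75% of all). At least 1 of these motifs was in 43 windows (57.3%, against 14.7% of all), and 8 genes held 2 of them. A match is a string of letters and not a measured binding site.

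Most mitochondrial ribosomal protein genes had a slightly higher scaled signal in fetal liver than in bone marrow LSK cells, and none differed by as much as 2-fold. A difference is the log2 value in fetal liver less that in bone marrow, with each array first scaled to its own 75th percentile of signal, and ± gives the technical error reported by the image software. Signals are printed before scaling, as a pair with bone marrow first. Of the 77 genes measured, 71 were above 0, the fetal liver side, and 6 below it, with a median of 0.42, an SD across genes of 0.29 and a range from -0.65 to 0.98. Over all 13379 genes measured on at least 1 array the median was 0.11, with 57.7% above and 42.2% below 0. On the fetal liver side 22 members were at least 1.5-fold apart, against 17.5% of all genes, and on the bone marrow side 1 member, against 14.9%. At 2-fold or more there were 0 members in either direction, against 6.7% of all genes on the fetal liver side and 8.12% on the other. The members' SD of 0.29 was below that of all genes (0.88), which takes in many dim genes. A narrow spread was not particular to the members. The SD was 0.24 for mitoribosome assembly factors, 0.30 for respiratory chain and ATP synthase genes and 0.34 for cytosolic ribosomal proteins, lists described below. There is 1 array per group, so none of these differences has a replicate check and no p-value is given.

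**Figure D1:**
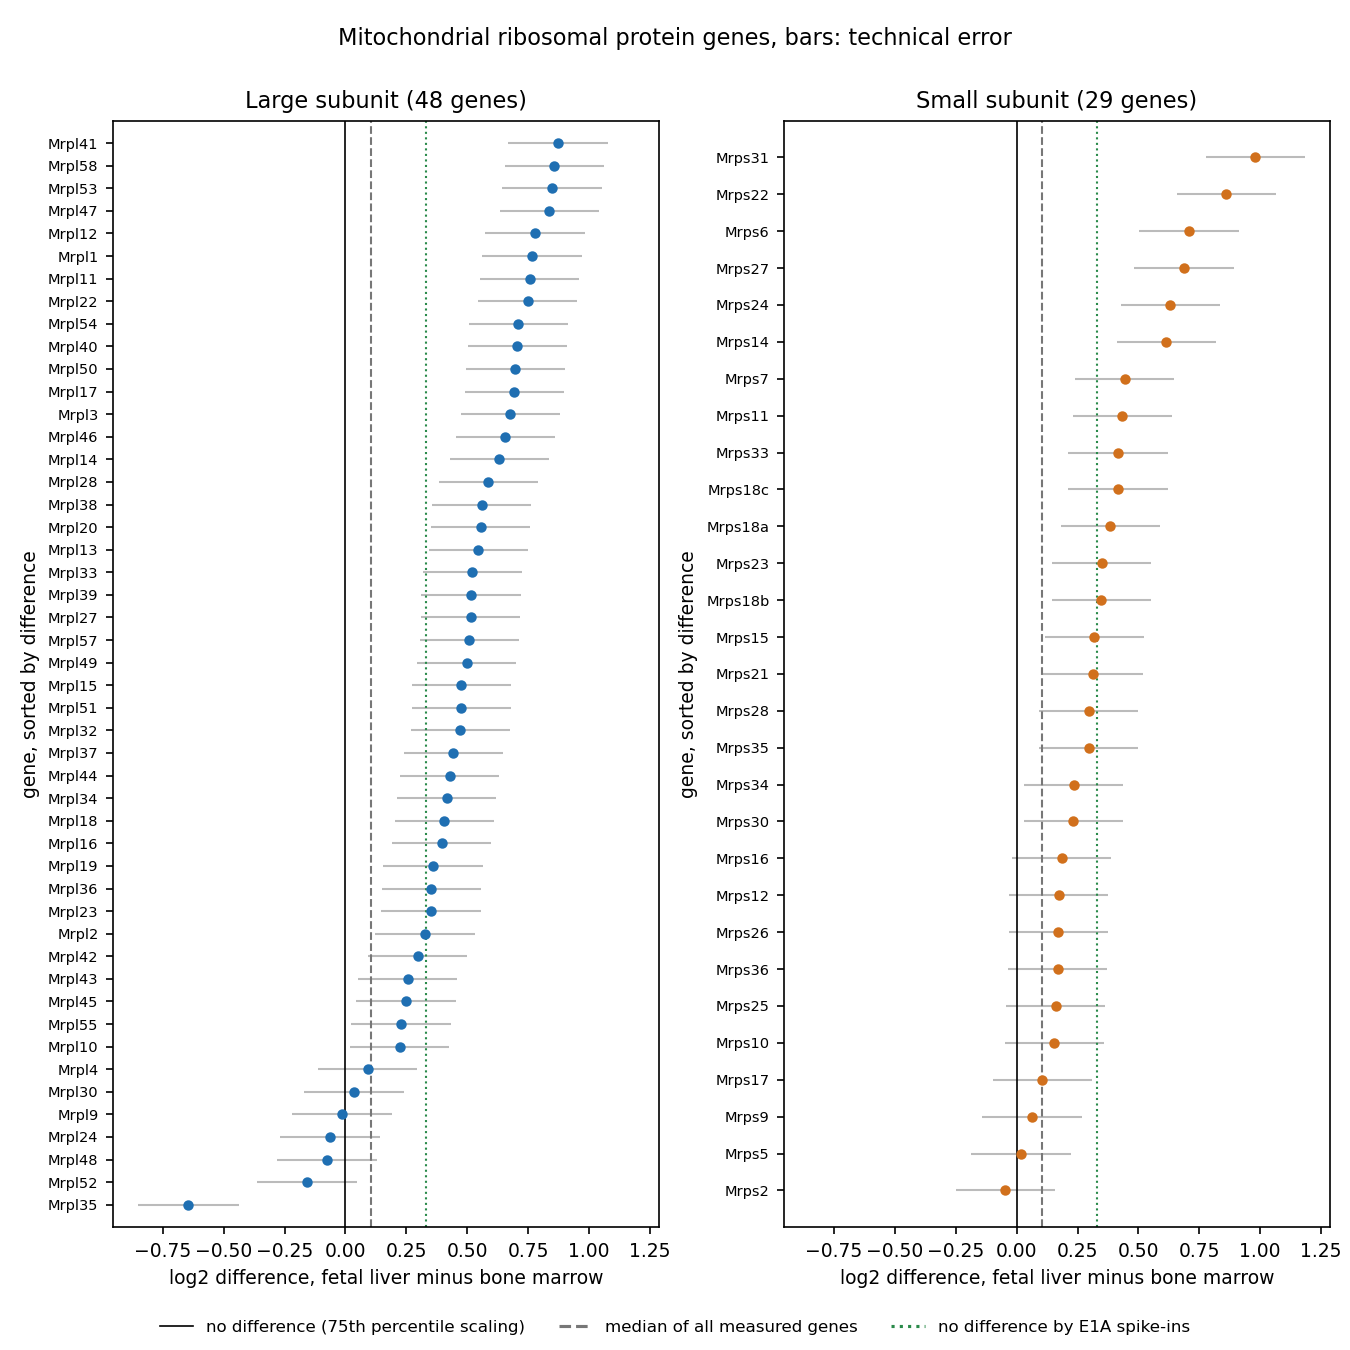
Log2 difference in scaled signal, fetal liver minus bone marrow (x axis), of the 48 large and 29 small subunit genes measured, sorted within each subunit. Points are the brighter probe of each gene, bars the technical error, the solid line no difference, the dashed line the median of all measured genes (0.11) and the dotted line the place of no difference by the spike-in controls (0.33). Of the 77 points, 71 lie right of the solid line, and Mrpl35 stands alone at -0.65.

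The scaling decides how much of this shift is seen. Without any scaling the members' signals were almost the same on both arrays, with medians of 4878 (bone marrow) and 4845 (fetal liver), and 38 genes brighter on the fetal liver array and 39 dimmer. The 75th percentile itself was lower in fetal liver, at 134 against 179, a log2 difference of -0.42. The E1A spike-in controls, added to each RNA sample before labelling, differed by a median of -0.08 (SD 0.17 over the 8 of 10 controls above background on both arrays). Scaling by these controls lowers each difference measured on both arrays by 0.33, while genes held at a bound on 1 array can move by less. The members' median was then 0.08 and that of all genes -0.23. Of the 77 members, 48 were then above 0, against 32.5% of all genes, and 29 below it, against 67.1%. At 1.5-fold or more there was 1 member on the fetal liver side, Mrps31, against 7.83% of all genes, and again 1 on the bone marrow side, Mrpl35, against 26.6%. At 2-fold or more there were again 0 members, against 3.8% and 13% of all genes. Since this scaling shifts all 77 members by the same amount, it leaves their order as it was. Under both scalings, 66 of 77 (85.7%) lay above the median of all measured genes, and the members' median lay 0.31 above it. Nearly all genes shift by the same amount as the members, so this match was fixed in advance and is no second check.

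When the genes measured on both arrays were split by mean signal into 3 equal parts, 66 of the 77 members fell in the brightest part, 10 in the middle and 1 in the dimmest. Among all genes of the brightest part the median was 0.17 and the SD 0.60, with 66.2% above 0 and 14.0% above it by 1.5-fold or more. The members' median of 0.42 was above that value too. The summed unscaled signal of the members was 528139 in bone marrow and 528710 in fetal liver, or 0.748% and 0.870% of the signal of all named genes.

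**Figure D2:**
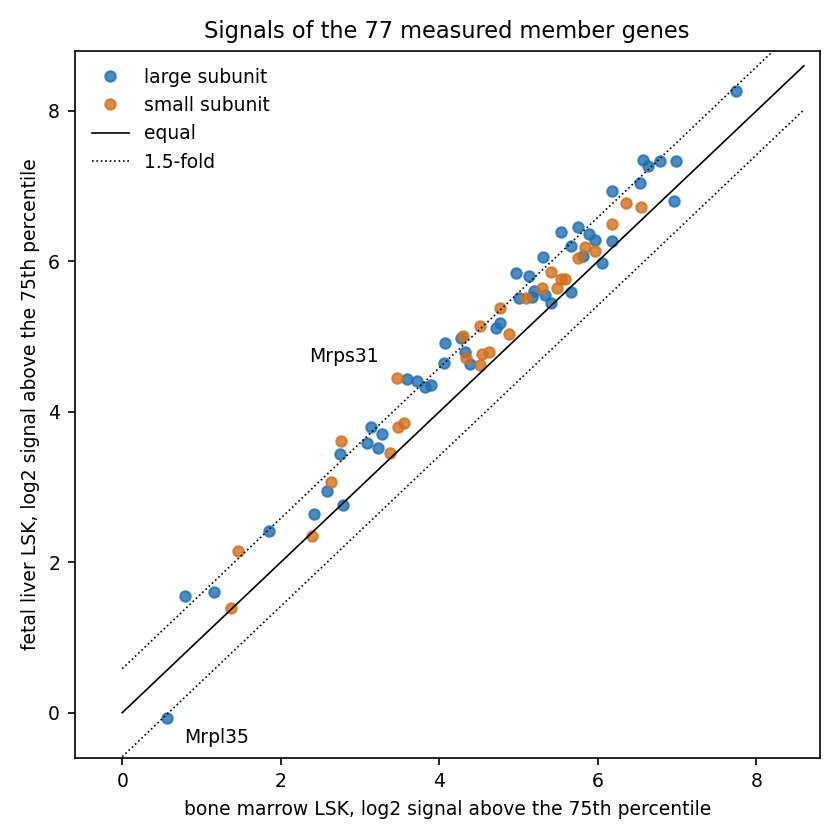
Scaled log2 signal in bone marrow LSK cells (x axis) against fetal liver LSK cells (y axis) for the 77 measured genes, 1 point per gene, with a solid line of equal signal and dotted lines at 1.5-fold. Most points lie between the solid and the upper dotted line, Mrps31 lies farthest above the solid line and Mrpl35 farthest below it, and the place along the diagonal is no comparison of levels between genes.

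The technical error was 0.20 for nearly every member, and 60 members were higher in fetal liver by more than their own error under 75th percentile scaling. In bone marrow, 1 member was higher by more than its error. A difference over 2 times its error was reached by 41 members. These counts were not made over all genes, so they have no share to stand beside. They hold for 75th percentile scaling only, since spike-in scaling lowers each of these differences by 0.33, more than the error. The 25th and 75th percentiles of the differences of all genes were -0.29 and 0.44. Neighbours in the sorted order of differences mostly differed by far less than the error and are not separated by it. The spread seen between spots of 1 probe was smaller. Mrpl50, a large subunit protein with no bacterial counterpart, was printed as 10 spots, with signals from 1122 to 1270 in bone marrow (median 1202) and from 1411 to 1537 in fetal liver (median 1441). These spots did not overlap between the arrays, and the scaled difference was 0.70 with an SE over spots of 0.02. Mrpl34, the counterpart of bacterial L34, ranged from 6276 to 6933 in bone marrow (median 6515) and from 6279 to 6945 in fetal liver (median 6520.2) before scaling. Its spots overlapped almost fully between the arrays, and its difference was 0.42 (SE 0.02) once scaled. Mrps35, a small subunit protein with no bacterial counterpart, ranged from 2039 to 2223 in bone marrow (median 2094) and from 1837 to 2027 in fetal liver (median 1952). Its unscaled signal was lower in fetal liver and its scaled difference was 0.30 (SE 0.02).

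A second probe gave another check. Of the 78 genes, 56 had 1 probe and so lack this check. The other 22 had 2 probes, and both were measured on both arrays for 21 of them. The gap between the probes of a gene had a median of 0.10, was under 0.2 for 16 genes and over 0.3 for 5. Mrpl41 had the widest gap. Its brighter probe gave 0.87, from signals of 5608 and 7700, and the other 0.03, from dim signals of 49.7 and 38.1. The value of Mrpl41 therefore rests on 1 probe. Mrpl50 was at 0.70 and 0.26, Mrpl15, the counterpart of bacterial L15, at 0.48 and 0.12, and Mrps14, the counterpart of bacterial S14, at 0.62 and 0.28. Mrps25 went the other way, at 0.16 by its brighter and 0.55 by its dim probe. For Mrpl50 the gap between probes was much larger than the spread between spots. The second probe of Mrpl39 was above background in fetal liver only, at a signal of 16.2 against 4.96, and its brighter probe was at 0.52.

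**Figure D3:**
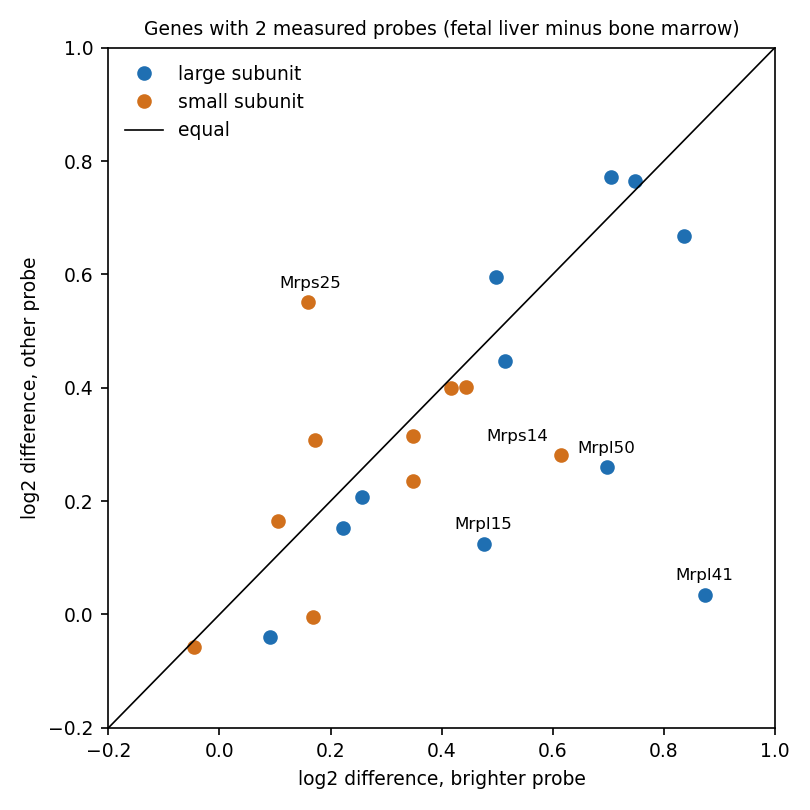
Log2 difference, fetal liver minus bone marrow, by the brighter probe (x axis) and the other probe (y axis) of the 21 genes with 2 probes measured on both arrays, 1 point per gene, coloured by subunit. Most points lie near the line of equal values, and the 5 named genes differ by more than 0.3, Mrpl41 the most (0.87 against 0.03).

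The large subunit genes had a median of 0.49 (SD 0.31, 48 genes) and the small subunit genes a median of 0.31 (SD 0.25, 29 genes), a gap of 0.17. The gap was not tested. In the large subunit 43 of 48 genes were above 0, 16 of them by 1.5-fold or more, and in the small subunit 28 of 29 and 6. The shares over all genes were 57.7% above 0 and 17.5% by 1.5-fold or more. Scaled by the spike-in controls, the large subunit had a median of 0.16 and the small one -0.02. Above 0 were then 35 of 48 and 13 of 29 genes, against 32.5% of all genes. Mrps18a and Mrps30 carry small subunit names but sit in the large subunit of mammalian mitochondria, at 0.38 and 0.23. Counting them there left a gap of 0.16.

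Proteins of the large subunit that have a bacterial counterpart had a median of 0.47 over 28 measured genes, with 25 above 0 and 9 at least 1.5-fold. Those found only in mitochondria had a median of 0.50 over 17 genes, with 15 and 6. In the small subunit the medians were 0.31 over 15 genes with a bacterial counterpart and 0.35 over 9 without. In each of these groups 3 genes were above 0 by 1.5-fold or more. Over all genes 57.7% were above 0 and 17.5% by 1.5-fold or more. Within each subunit the medians with and without a bacterial counterpart lay closer together than the medians of the subunits did.

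The stalk of the large subunit recruits translation factors, and the values of its proteins were spread out. Mrpl12, the counterpart of bacterial L7/L12 that contacts elongation factors, had signals of 17042 and 21916. It was 1.72-fold higher in fetal liver after scaling (0.78 ± 0.20). Mrpl11, at the base of the stalk, had signals of 12907 and 16337 and was at 0.76 ± 0.20. Mrpl10, which carries Mrpl12 on the ribosome, was at 0.22 ± 0.20 from 959 and 839, with its other probe at 0.15. Mrpl1, of the stalk on the opposite side where used tRNA leaves, had signals of 309.6 and 394 and was at 0.77 ± 0.20. Apart from Mrpl10, the fetal liver signal of these genes was the higher of the pair before scaling too.

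Of 8 proteins around the exit of the peptide tunnel, 7 were above 0 and 3 at least 1.5-fold, with a median of 0.47. The shares of all genes were 57.7% and 17.5%. Mrpl47, the counterpart of bacterial L29, had signals of 2164 and 2896 and was 1.79-fold higher (0.84 ± 0.20), with its other probe at 0.67. Mrpl22, which lines the tunnel, rested on a pair of probes at 0.75 and 0.76, the closest match among the genes at least 1.5-fold apart. Mrpl17 was at 0.69, Mrpl39 at 0.52 and Mrpl44 at 0.43. Mrpl23 and Mrpl45, the latter known to tie the ribosome to the inner membrane, were at 0.35 and 0.25. Mrpl24, the counterpart of bacterial L24 beside the tunnel exit, was at -0.06 ± 0.20, from 11835 and 8489. It is not separated from 0 under 75th percentile scaling.

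Proteins of the central protuberance, the knob of the large subunit that faces the head of the small subunit, had a median of 0.56 over 5 genes. Mrpl40 was at 0.71 by the brighter probe and 0.77 by the other, Mrpl46 at 0.66, Mrpl38 at 0.56, just under the 1.5-fold limit, and Mrpl18 at 0.41. Mrpl48 was at -0.08 ± 0.20. It rests on 1 probe.

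Other large subunit genes at the top of the order were Mrpl41 (above), Mrpl58 and Mrpl53. Mrpl58, a peptidyl-tRNA hydrolase that frees stalled chains and is built into the ribosome, had signals of 8280 and 11250.3. It was 1.81-fold higher in fetal liver (0.86 ± 0.20). Mrpl53, found only in mitochondria, had signals of 3002 and 4052 and was 1.80-fold higher (0.85 ± 0.20). Mrpl54 was at 0.71, Mrpl3, the counterpart of bacterial L3, at 0.68 and Mrpl14, the counterpart of bacterial L14, at 0.63. Mrpl28 was the member just past the 1.5-fold limit, at 0.59.

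At the bottom of the order Mrpl35, the counterpart of bacterial L35, stood apart. Its signals were 266 in bone marrow and 127 in fetal liver. It was 1.56-fold higher in bone marrow after scaling (-0.65 ± 0.21) and was the only member higher there by more than its error. It rests on 1 probe of 1 spot, as do Mrpl58, Mrpl53, Mrps31 and Mrps22 near the top of the order. The next lowest of the large subunit were Mrpl52 at -0.16 ± 0.20, from 22277 and 14965, and Mrpl48, Mrpl24 and Mrpl9 between -0.08 and -0.01. None of these 4 was separated from 0 by its error under this scaling, while under spike-in scaling they lay between -0.49 and -0.34.

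In the small subunit the highest were Mrps31 and Mrps22, both found only in mitochondria. Mrps31 had signals of 1975 and 2919 and was 1.97-fold higher (0.98 ± 0.20), the largest difference of any member. Mrps22 had signals of 1209 and 1646 and was 1.82-fold higher (0.86 ± 0.20). Both were brighter in fetal liver before scaling, and each rests on 1 probe of 1 spot. Mrps6, the counterpart of bacterial S6, was at 0.71, Mrps27, a protein of the pentatricopeptide repeat class, at 0.69, Mrps24, the counterpart of bacterial S3 where the messenger enters, at 0.63 and Mrps14 at 0.62. Between Mrps14 and the next gene, Mrps7 at 0.44, lay the widest step in the order of the small subunit.

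Several small subunit proteins with bacterial counterparts were at the lower end. Mrps5, the counterpart of bacterial S5, had signals of 462 and 350.4 and was at 0.02 ± 0.20. Mrps12, the counterpart of the decoding protein S12, was at 0.17. Mrps2 was at -0.05, with its other probe at -0.06, Mrps9 at 0.06 and Mrps17 at 0.10. Mrps10 was at 0.16. All of these were within their technical error of 0 under 75th percentile scaling. Under spike-in scaling they lay between -0.38 and -0.16, with Mrps2, Mrps5, Mrps9 and Mrps17 below 0 by more than their error. The paralogs Mrps18a, Mrps18b and Mrps18c, related to bacterial S18, lay close together at 0.38, 0.35 and 0.42. Mrps36, whose product is now placed in the oxoglutarate dehydrogenase complex and not in the ribosome, was at 0.17, with its other probe at 0.00.

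Mitochondrial ribosomal proteins that carry other names formed a list of 5. All 5 were above 0, against 57.7% of all genes, and 3 at least 1.5-fold, against 17.5%. Their median was 0.65. Gadd45gip1, a large subunit protein near the tunnel exit, had signals of 8299 and 12453 and was at 1.00 ± 0.20, past the largest difference among the members. Chchd1 and Ptcd3, small subunit proteins, were at 0.80 and 0.65, Aurkaip1 at 0.46 and Dap3, a GTP-binding small subunit protein, at 0.23.

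The other lists of mitochondrial translation also had medians above that of all genes (0.11). Over all genes 57.7% were above 0 and 17.5% at least 1.5-fold. At 1.5-fold the synthetase list fell below that share and the translation factors a little above it. The synthetase list holds mitochondrial aminoacyl-tRNA synthetases, which charge the tRNAs, and Gatb, Gatc and Qrsl1 of the glutamyl amidotransferase. Its median was 0.50, with 18 of 19 measured genes above 0 and 3 at least 1.5-fold. These 3 were Wars2 (1.16 ± 0.26, at dim signals of 23.3 and 39.0), Hars2 (1.07 ± 0.20, from 1006 and 1587) and Pars2 (0.98 ± 0.20). The lowest were Fars2 at 0.05 and Cars2 at -0.09. Translation factors and messenger-binding activators had a median of 0.34, with 13 of 14 above 0 and 3 at least 1.5-fold. Slirp, which stabilises mitochondrial messengers with Lrpprc, had signals of 4865 and 6669 and was at 0.87 ± 0.20. Taco1, an activator of cytochrome oxidase translation, was at 0.79 and Mtfmt, which formylates the initiator, at 0.67. Mtif2, the initiation factor, was at 0.19. Mrrf, which recycles ribosomes, was the exception at -0.53 ± 0.26, from dim signals of 45.2 and 23.4.

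Assembly factors and enzymes of mitochondrial ribosomal RNA had a median of 0.27, with 21 of 24 measured genes above 0 and 2 at least 1.5-fold, the pseudouridine synthase relatives Rpusd3 (0.73) and Trub2 (0.61). Mettl17 and Mettl15, of the methyltransferase family, were lowest at -0.17 and -0.25. Genes for mitochondrial DNA, transcription and RNA processing had a median of 0.39, with 14 of 18 higher and 3 at least 1.5-fold. These were Pnpt1, a nuclease of RNA decay, at 0.82, Tefm, the elongation factor of mitochondrial transcription, at 0.69 and the RNA polymerase Polrmt at 0.60. Trmt10c, of tRNA processing, was at -0.22 and the topoisomerase Top1mt at -0.46 ± 0.20. At 1.5-fold the assembly list and the DNA and RNA list were both below the share of all genes (17.5%). Scaled by the spike-in controls, the 4 lists from the synthetases on had medians of 0.17, 0.01, -0.06 and 0.06.

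Nuclear factors known for control of mitochondrial genes showed no common direction, with 6 of 10 measured genes higher in fetal liver and a median of 0.07, close to that of all genes (0.11). Pprc1, a coactivator related to the PGC-1 family, was at 0.73 and Gabpa, an Ets factor, at 0.66 ± 0.20, from 320.0 and 379.9. Nrf1 was at 0.23, Yy1 at 0.11, Max at -0.34 and Myc at -0.54 ± 0.20. The members' own differences were alike in promoters with and without each motif. Members with and without an Nrf1 motif had medians of 0.43 and 0.42, those with and without an Ets motif 0.42 and 0.43, and those with and without a Yy1 motif 0.44 and 0.42. Mrps31 and Mrpl41, at the top of their subunits, held none of the 3 in their window.

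**Figure D4:**
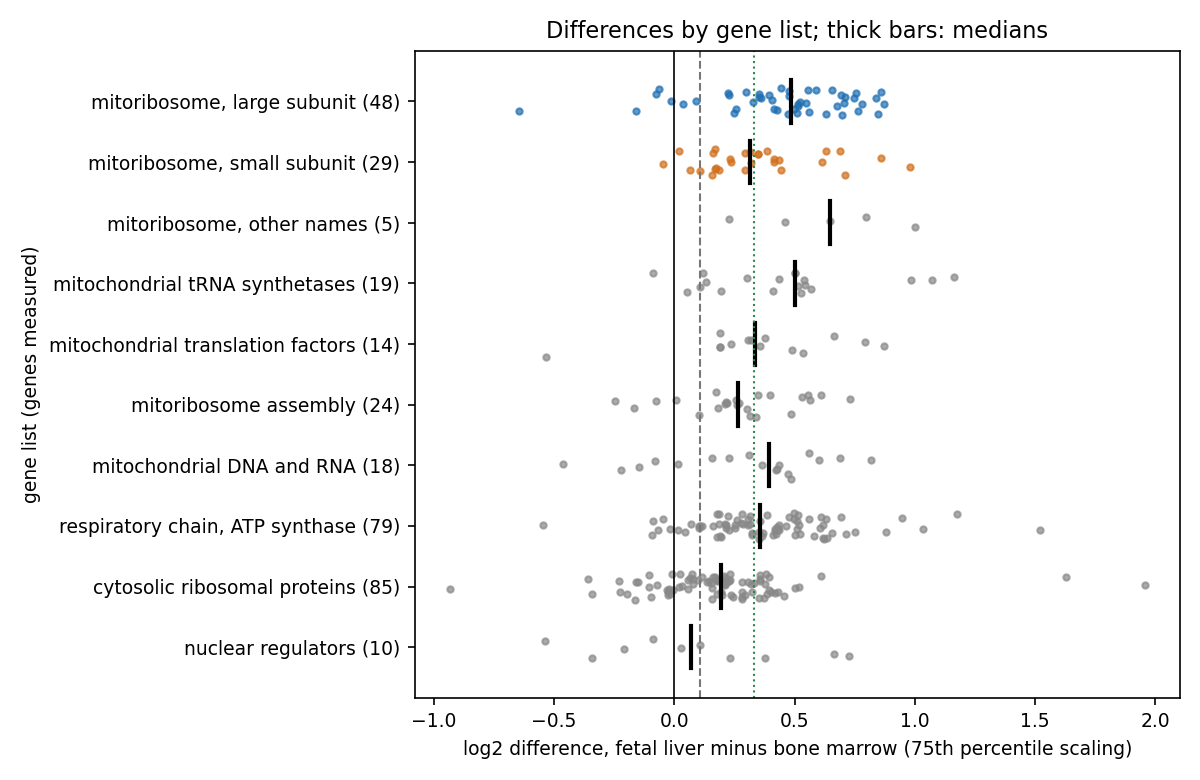
Log2 difference, fetal liver minus bone marrow (x axis, 75th percentile scaling), for each measured gene of 10 gene lists (rows, with the number measured), with thick bars at the medians. The solid line is no difference, the dashed line the median of all genes (0.11) and the dotted line the place of no difference by the spike-in controls (0.33), and the large subunit (median 0.49) lies right of the cytosolic ribosomal proteins (0.19).

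Nuclear genes of the respiratory chain and ATP synthase, the complexes that mitochondrial ribosomes supply with core subunits, had a median of 0.36 with 73 of 79 measured genes above 0 and 16 at least 1.5-fold. This lies between the medians of the small and the large subunit of the mitochondrial ribosome. Cytosolic ribosomal proteins had a median of 0.19, with 65 of 85 higher and 3 at least 1.5-fold. Over all genes 57.7% were higher and 17.5% at least 1.5-fold. At 1.5-fold the cytosolic list was below that share and the respiratory chain near it. Spike-in scaling lowers the medians of the cytosolic, respiratory chain and mitochondrial ribosomal groups by 0.33. They were then -0.14 for the cytosolic ribosomal proteins (19 of 85 above 0) and 0.025 for the respiratory chain (42 of 79). The mitochondrial ribosomal proteins were at 0.08 (48 of 77), and over all genes 32.5% were above 0. These are descriptions of the same 2 arrays, and the differences between lists were not tested.

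Kit, which encodes c-Kit, was at 0.00 ± 0.20, and Ly6a, which encodes Sca-1, at -2.28 ± 0.20, and both were above background on both arrays. They belong to a list of 8 LSK genes, all measured, with a median of -0.21. Of these, 5 lay below 0, against 42.2% of all genes, and 3 above it, against 57.7%. Flt3 was at -0.89 and Gata2 at -0.67, while Cd48 was at 0.51 and the dim Slamf1 at 0.73. Markers of other cell types also differed. Of 10 erythroid genes 9 were measured. All 9 were above 0, against 57.7% of all genes, and 8 at least 1.5-fold, against 17.5%. The list's summed scaled signal was 102 in bone marrow and 772 in fetal liver in units of the 75th percentile. Most of it was 1 gene, Hbb-bt, at unscaled signals of 16971 and 101150 within sums of 18168 and 103457. Of 10 neutrophil genes 9 lay below 0, against 42.2% of all genes, with a median of -1.18 and sums of 820 and 662. Mpo, at -0.27, made up most of these sums, with unscaled signals of 117531 and 72987 within 146673 and 88705. The hepatocyte genes Alb, Apoa1 and Ttr were well above background on neither array, and 5 of 8 such genes were measured. Of these 5, 3 lay below 0, against 42.2% of all genes, and 2 above it, against 57.7%. Below 0 were Afp (-1.26, from 1540 and 483), Trf (-1.27) and Fgb (-2.02, well above background in bone marrow only). Above 0 were Apoa2 (0.24, from 871 and 769) and the dim Serpina1a (0.75, from 13.0 and 16.3). The hepatocyte list's sums were 83.4 and 38.4, mostly from Trf, at unscaled signals of 12442 and 3868. Of 4 B cell genes on the array 1 was measured, Cd79b, at signals of 4030.2 and 3974, while Ms4a1 was well above background on neither array, and the list's sums were 22.6 and 29.8. Of 5 T cell genes 4 were measured, 3 of them above 0, with sums of 11.7 and 14.9. The part of these cell types in the shift of the mitochondrial ribosomal genes was not tested.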

How the data were processed

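The deposited scanner files hold linear spot intensity values written by Agilent Feature Extraction 10.7.1.1, per the file headers, already corrected for background within each array. Per the file headers, further columns flag the type and quality of each spot. The authors' deposited value table is a linear ratio, which was the processed signal over 1 constant per array (178.6 and 133.9), within 0.1% for 99.99% of 55232 probes printed once. Its column medians were 0.0589 and 0.0604, so it is neither on a log scale nor centred by gene. How the constants were chosen is not stated here, but they lie close to the 75th percentiles used above (178.9 and 134.0). The table is therefore nearly the same scaling.

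Outlier spots (137 and 122 of 59305) were left out, spots of a probe were averaged, and log2 signals were scaled to each array's 75th percentile. Probes above background made up 47.4% and 46.4%, and no spot was saturated. A gene took the probe with the highest mean log2 signal. A gene dim on 1 array was given a bound, set from the higher of its own signal and the lowest signal above background (12.4 and 9.82). Accessions, without versions, were named through the RefSeq table of GRCm38.p6, used for names only because the array design is of build mm9 (27226 of 55664 probes named). The cytosolic list leaves out S6 kinases, 2 binding partners and pseudogenes caught by its symbol pattern, with the same median of 0.19 when they are kept. Technical error came from the software's signal error, and the spread of log2 differences between spots of 247 probes printed 10 times was 0.15 (SD). The number of arrays limits the precision. Named were members at least 1.5-fold apart, the 5 highest and lowest of each subunit, dim members, members whose probes differ in sign with 1 at least 0.5 from 0, and list genes past 1.5-fold or at either end of their list. Other members were named for their role, and the respiratory, cytosolic and cell marker lists are given mostly by counts. Members and lists were chosen with earlier results of these data known. The steps were tested on simulated data. Python 3.11.15 and R 4.3.3 with limma 3.58.1 were used, and 10 alternatives were run. The normexp alternative used the median spot signal, since the mean planned for it is not used here.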

Additional observations from a re-analysis of the deposited data

How the results depend on the processing

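With 1 array per group no result has a test, and the results depend most on the scaling. Once scaled by the spike-in controls, the medians were 0.085 for all members, 0.16 for the large and -0.017 for the small subunit. Members 1.5-fold or more above 0 then numbered 1 and not 22, and the share of all genes was 7.83% and not 17.5%. Quantile normalization gave 14 such members, against 15.4% of all genes, and normexp background correction 12, against 9.36%. The median of the small subunit was 0.15 under normexp, and the other medians lay between 0.21 and 0.49. Scaling by the median of all probes, the mean over probes, no filter on dim probes, genes above background on both arrays only, outlier spots kept and the authors' value table each gave 20 to 22. The shares of all genes under these settings ran from 15.8% to 17.9%. The authors' table is scaled almost as in the main setting, so its match is no separate check. Members higher in fetal liver numbered 48 of 77 by spike-ins, against 32.5% of all genes. They numbered 64 by normexp, against 56.2%, and 68 by quantile, against 53.6%. Otherwise they numbered 69 to 72, the last with Mrpl21 included, against 55.2% to 66.1% of all genes. Members above the median of all genes numbered 61 to 67 under all settings. Scaling by the spike-ins or by the median of all probes shifts a whole array, so it could hardly change this count. Counts at least 2-fold were 0 throughout. The 22 genes stayed above 0 under every setting, and Mrpl35 stayed below it, between -0.98 and -0.46. These genes were picked by the 1.5-fold limit of the main setting. The spike-in shift is smaller than that limit, so it could not take the 22 below 0, and it could only lower Mrpl35. Taking the mean over probes moved Mrpl41 to 0.45, Mrpl50 to 0.48 and Mrps14 to 0.45, all under the 1.5-fold limit. The cause of the changes under normexp and quantile normalization was not tested. Signals near background limit Mrpl21. No paired analysis was possible because each group has 1 sample.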

Other observations

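Many mitochondrial ribosomal genes start next to another gene on the opposite strand, and this was examined after the values were seen. Of the 75 member windows, 28 (37.3%) had such a start site facing away within 1000 bases, against 11.3% of all promoters. In 21 pairs of a member and a gene that is no member both were measured, which leaves out Ighmbp2, the neighbour of Mrpl21, at 0.21. The 21 neighbours had a median difference of 0.28, with 18 above 0, against 57.7% of all genes. At 1.5-fold or more 6 were on the fetal liver side, against 17.5% of all genes, and 0 on the other, against 14.9%. The members of these pairs had a median of 0.47. Across the 21 pairs, which share both arrays, Pearson's r of the differences was 0.06, given as a description.

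Single pairs showed both like and unlike values. Mrpl46 and Mrps11, a large and a small subunit gene that share a start region, were at 0.66 and 0.43. Mrps12 and Sars2, the mitochondrial seryl-tRNA synthetase, were at 0.17 and 0.20, and Mrpl43 and Twnk, the mitochondrial DNA helicase, at 0.26 and 0.36. Mrpl27 was at 0.51 and its neighbour Eme1, an endonuclease subunit of DNA repair, at 1.67. Mrpl41 was at 0.87 and its neighbour Pnpla7 at -0.18, and Mrpl49 was at 0.50 and its neighbour Fau, which encodes a cytosolic ribosomal protein, at 0.11. These pairs were picked after their values were seen.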
